A study of Mus musculus with 14 samples.

Results

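Mouse liver tumours that lacked both Cdk16 and Cdk18 (DKO, 4 tumours) were compared with wild-type tumours (WT, 5 tumours) across all genes with enough counts, so 9 of the 14 tumours of the study were compared. Another 5 tumours, which lacked Cdk18 alone, served only to estimate the spread between tumours. The tumours were assigned to their groups by the genotype in the labels. The study's title places these kinases in DNA repair at the nuclear pore and in hepatocellular carcinoma. Each tumour was started by hydrodynamic injection, in which plasmids are pushed into the liver through a tail vein. The plasmids encoded c-Myc and β-catenin of the mouse, and both groups share these drivers. DKO animals carried floxed Cdk16 alleles together with Cre-ERT2, a Cre recombinase that tamoxifen switches on, on top of the Cdk18 loss. Per the labels' protocols, tamoxifen was given at 75 mg/kg on 5 days to floxed animals and to Cre-ERT2 controls, and tissue was taken 10 days later. The endpoint was a tumour of 15 mm, distress, or 8 weeks after injection. The promoter of the Cre-ERT2, the strain, age and sex of the animals, and whether the WT animals carried Cre-ERT2 and received tamoxifen are not given in the sources used here. Loss of the kinases and exposure to Cre and tamoxifen therefore cannot be told apart in this comparison. Each library is taken as 1 animal, since the labels' protocols speak of mice picked at random within a genotype.

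CDK16 and CDK18 belong to the PCTAIRE kinases, cyclin-dependent kinases named after a motif in their sequence. CDK16 is active when bound to cyclin Y, and the group is best known in neurons, in sperm development and in vesicle traffic. c-Myc is a transcription factor that drives ribosome production and entry into S phase. β-catenin is the effector of Wnt signalling, and in normal liver it sets the gene programme of hepatocytes around the central vein.

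The libraries counted messenger RNA at its 3′ end, and total counts per library ran from 1442417 to 6068209. Levels below are CPM, counts scaled to a common library size with TMM factors. A log2 fold change is DKO over WT from edgeR's quasi-likelihood test with its standard error (SE), and a gene was called at a Benjamini-Hochberg adjusted p under 0.05. Libraries of 1 group differed widely. The first principal component of the 9 libraries held 54.4% of the variance, and on it DKO 3 (-35.8) lay among the WT libraries (-92.0 to 11.5), away from the other DKO libraries (78.9 to 134). WT 2 lay nearest to the DKO side. Hepatocyte markers, present in every library, followed a similar order, with summed levels of 293 to 6260.4 CPM in WT and 2897 to 36036 CPM in DKO. DKO 3 was the lowest DKO library and WT 2 the highest WT library. In bulk tissue, fewer cells of a type and less RNA per cell cannot be told apart, and this holds for every cell type below. Y-linked genes summed to 3.85 to 788 CPM in WT and 0.647 to 2.78 CPM in DKO, and for genes that depend on sex, sex and genotype cannot be told apart.

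Both deleted genes were still counted in DKO. Cdk16, at X:20687954-20699880 in GRCm38, had a log2 fold change of -0.67 (SE 0.35) and Cdk18, at 1:132112237-132139684, one of -1.26 (SE 0.68), and both groups overlapped for each gene. DKO 1, 2 and 4 held 38.9, 18.03 and 17.8 CPM of Cdk16, below the lowest WT library (40.0 CPM) but for DKO 1 only by a little, whereas DKO 3 held 48.5 CPM, inside the WT range. The extent of the deletions relative to the counted 3′ ends was not known here, and these counts therefore do not check the genotype. The related kinase Cdk17 stood at 45.6, 30.2, 29.1, 63.0 and 80.2 CPM in WT 1 to 5 and at 34.3, 51.8, 54.1 and 70.6 CPM in DKO 1 to 4, with overlapping groups and a difference of 0.09 on the log2 scale (SE 0.33). Ccny, which encodes cyclin Y, differed by 0.00 on the log2 scale (SE 0.23), and its DKO libraries spanned 109 to 122 CPM. Cdk14, a PFTAIRE kinase, was at 10.0003, 7.32, 59.6 and 4.45 CPM in DKO 1 to 4 against 23.4 to 70.6 CPM in WT, below every WT library in DKO 1, 2 and 4 and inside the WT range in DKO 3. Its log2 fold change was -1.02 (SE 1.03), and 0.0238 with log2 Y-linked CPM as a covariate.

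Neither driver gene was called. Myc counts gave 38.6, 15.5, 24.4, 14.5 and 22.4 CPM in WT and 9.71, 9.01, 20.7 and 33.9 CPM in DKO, a difference of -0.33 on the log2 scale (SE 0.52) with overlapping groups. For Ctnnb1, the β-catenin gene, the levels were 781, 612, 858, 834 and 1282 CPM in WT and 643, 581, 828 and 1108 CPM in DKO, a difference of -0.14 on the log2 scale (SE 0.27). Plasmid and chromosomal transcripts of these genes were not separated. Of the Myc network, Max differed by -0.16 (SE 0.23), Mxd3 by -0.41 (SE 0.61), Mycl by 0.47 (SE 0.55) and Mlx by 0.65 (SE 0.30) in log2 fold change, and none was called.

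Of 13997 genes kept, edgeR called 1, or 0.00714%, and that gene was C1rb. The other genes all had an adjusted p of 0.146 or more. At an unadjusted p under 0.05, 1921 genes (13.7%) stood higher and 730 (5.22%) lower in DKO. Every DKO library lay above every WT library for 425 genes (3.04%), and below for 344 (2.46%). DESeq2 called 875 genes higher (6.28% of 13933) and 158 lower (1.13%). The median log2 fold change of all genes was -0.04, with 6706 genes higher and 7291 lower. The counts below are read against these shares. A gene near 0 in 1 group could pass the filter on low counts only through other libraries. Counts of list members in 1 direction are therefore descriptions. The number of genes at an unadjusted p under 0.05 was 1519 without DKO 2 and 3795 without DKO 3, and the C1rb call was lost in 9 of the 14 fits that left out 1 library.

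**Figure D1:**
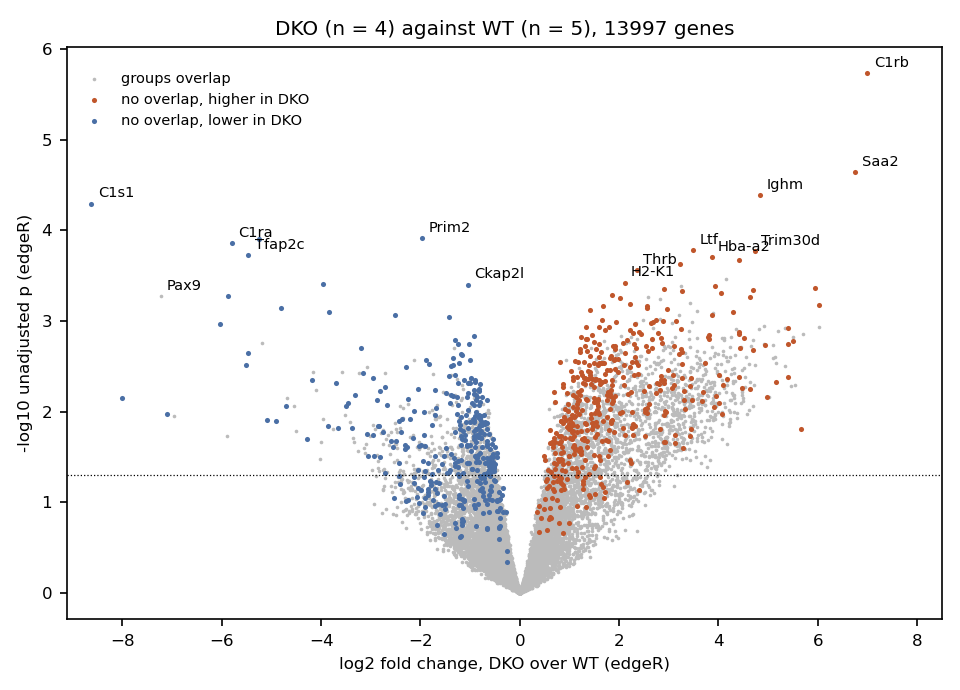
Each point is 1 of 13997 genes, with the log2 fold change of DKO (n = 4) over WT (n = 5) on the x axis and -log10 of edgeR's unadjusted p on the y axis, and the dotted line marks p of 0.05. Orange and blue points are genes whose groups do not overlap. C1rb stands alone at the upper right (log2 fold change 6.9997 (SE 0.91)), and C1s1 and Prim2 have the smallest p among the genes lower in DKO.

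C1rb and C1ra are a pair of mouse genes for complement C1r, a serine protease of the C1 complex, and C1s1 and C1s2 encode its partner protease C1s. C1rb rose from 2.22, 4.26, 2.04, 0 and 0.771 CPM in WT 1 to 5 to 271, 430.5, 39.8 and 336 CPM in DKO 1 to 4, 269 ± 166 CPM in DKO (SD, n = 4) against 1.86 ± 1.63 CPM in WT (n = 5), with a log2 fold change of 6.9997 (SE 0.91) and an adjusted p of 0.0259 by edgeR. All 4 DKO libraries lay above all 5 WT libraries, DKO 3 by the least. Over the leave-one-out fits its log2 fold change stayed between 6.67 and 7.64, and its adjusted p ran from 7.0e-15 to 0.363 over all 25 alternatives. C1ra lay the other way, at 19.7, 112, 28.8, 10.4 and 50.1 CPM in WT and 0.571, 1.13, 0 and 1.67 CPM in DKO, log2 fold change -5.80 (SE 1.13), and was not called (adjusted p = 0.146 by edgeR). C1s1 was counted 385 times in WT and 0 times in DKO, at least 72.9-fold lower from a floor of 3 counts over the DKO libraries, a bound that was 29.4-fold without WT 2, which held most of its counts, and 47.8-fold without DKO 1. C1s2 had 0, 10, 0, 0 and 0 counts in WT and 16, 12, 2 and 41 counts in DKO, log2 fold change 4.27 (SE 1.34), and its groups overlapped, since DKO 3 lay below WT 2 in CPM. The transcripts of C1s1 and C1s2 were 95.9% identical over 2643 aligned bases, so counts may be split between them. The bound for C1s1 therefore covers counts assigned to that copy and not the pair. With the strain of the animals not given, a strain difference around these genes and the genotype cannot be told apart.

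The summed C1r pair differed less than either copy. C1ra and C1rb together stood at 21.9, 115.8, 30.9, 10.4 and 50.9 CPM in WT 1 to 5 and at 272, 432, 39.8 and 338 CPM in DKO 1 to 4, and the groups overlapped, since DKO 3 lay below WT 2 and WT 5. The share of C1rb in these counts was 0% to 10.2% over the WT libraries and 99.5% to 100% over the DKO libraries. The exact 95% binomial interval reached at most 20.8% in any WT library and fell no lower than 97.0% in any DKO library, counting error only. The transcripts of C1ra and C1rb were 97.9% identical over 2431 aligned bases. In the last 151 bases of C1rb, 148 of 150 aligned bases were the same in C1ra, so a read there can be assigned to either copy. In the last 151 bases of C1ra only 40 aligned in C1rb. The share of each copy is therefore uncertain. These genes lie close together, C1ra at 6:124512405-124523443, C1s1 at 6:124530345-124542359 and C1rb at 6:124570294-124581171 in GRCm38. The start regions of the 2 copies share a stretch of 149 bases from RefSeq (GRCm38.p6, plus strand, chr6:124512522-124512670 and chr6:124570180-124570328), shown because the only called gene is 1 of the copies. It matches at 139 positions, with 9 mismatches and 2 unpaired bases, which are in capitals.
C1ra: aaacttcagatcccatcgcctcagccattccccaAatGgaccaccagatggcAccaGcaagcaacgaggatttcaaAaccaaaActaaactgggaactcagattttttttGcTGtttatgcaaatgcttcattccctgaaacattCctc
C1rb: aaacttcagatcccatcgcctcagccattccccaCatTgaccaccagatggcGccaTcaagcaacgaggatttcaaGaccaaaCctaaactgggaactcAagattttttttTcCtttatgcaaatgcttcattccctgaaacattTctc
Of the liver complement list 25 of 26 genes had enough counts. The 2 lower ones were C1ra and C1s1, and 23 were higher, including C1rb, C1s2 and Mbl1, a lectin that starts the lectin pathway (0.742, 10.99, 0.291, 2.84 and 1.54 CPM in WT, 109, 123, 6.80 and 8.34 CPM in DKO, log2 fold change 4.10).

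Among the other genes with the smallest p and lower values in DKO were several with little expression in adult liver. Tfap2c, a transcription factor of early embryonic and trophoblast cells, stood at 31.5, 9.48, 30.0, 30.6 and 67.1 CPM in WT and 2.00005, 0.563, 0 and 0 CPM in DKO, log2 fold change -5.46 (SE 1.0998). The nonagouti gene (a), a pigment signalling gene, was at 38.9, 38.9, 73.1, 139 and 38.6 CPM in WT and at 1.14, 0, 4.53 and 0.556 CPM in DKO, log2 fold change -5.24 (SE 1.01). Crabp1, a retinoic acid binding protein of the embryo, was at 31.1, 5.495, 28.5, 95.5 and 21.6 CPM in WT and at 0, 0, 1.62 and 0.556 CPM in DKO, log2 fold change -5.88 (SE 1.325). None of these 3 genes overlapped between groups, and WT 2 held the least Tfap2c and Crabp1 of the WT libraries. Pax9, a transcription factor of pharynx and tooth development, had 137 counts in WT, with 0 in WT 5, and 0 in DKO, at least 26.0-fold lower, with 17.0-fold as the bound without DKO 1. Apod, which encodes apolipoprotein D, was at 44.1, 37.8, 58.5, 60.5 and 13.1 CPM in WT and 1.71, 1.13, 7.44 and 0 CPM in DKO, log2 fold change -3.96 (SE 0.86). Rpl39l, a ribosomal protein gene known from testis, was at 34.1, 2.47, 20.96, 14.2 and 104 CPM in WT and 0.286, 1.13, 2.27 and 1.11 CPM in DKO, log2 fold change -4.81 (SE 1.12). Of the list of developmental transcription factors, 19 of 42 had enough counts, 15 of these were lower and 4 had an unadjusted p under 0.05, against 5.22% of all genes. Members near 0 in DKO, such as Tfap2c with 8 counts over the DKO libraries, could pass the filter only through other libraries. These numbers are therefore a description and no support. Counts of 0 over all DKO libraries were found for 8 of the 42 members and over all WT libraries for 0. The same share over all genes is not given here. WT had 5 libraries against 4, with the deepest of all among them (WT 2, 6068209 counts). Genes with few counts can thus reach 0 more easily in DKO, and these zeros do not show silencing. DKO 3 lay nearest to WT here: its list median was -0.19 on the log2 scale relative to the WT mean, against -1.06, -2.50 and -2.78 in the other DKO libraries. Hoxa5 stood apart from the list through DKO 3 alone, at 5.43, 6.20, 88.4 and 2.78 CPM in DKO against 3.15 to 8.44 CPM in WT, log2 fold change 2.16 (SE 0.92), and -0.27 without DKO 3.

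**Figure D2:**
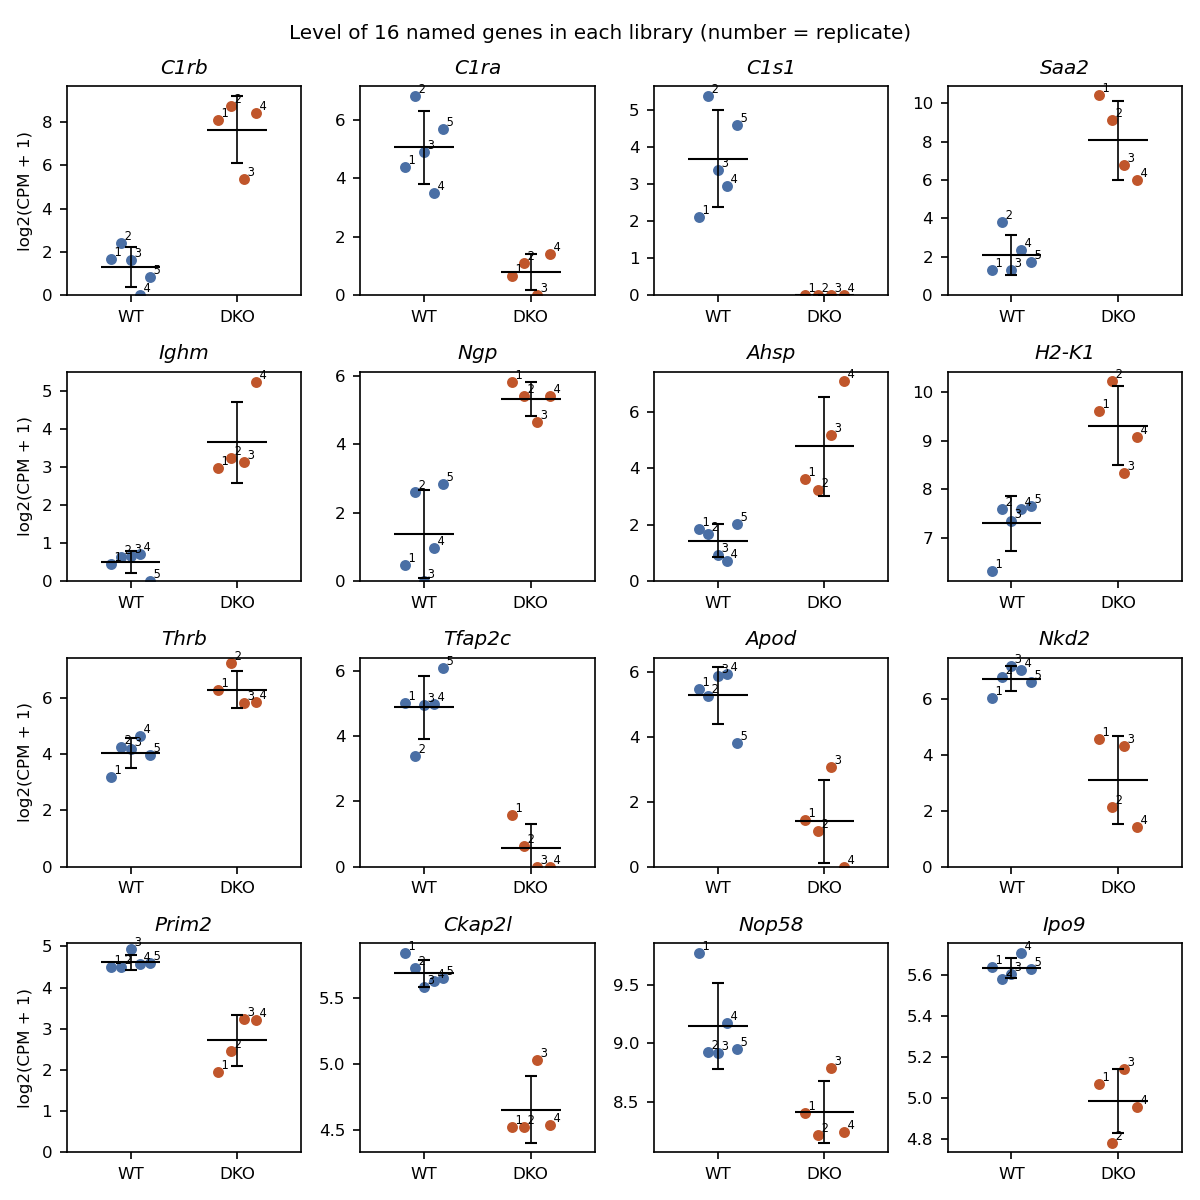
Level of 16 named genes in each library on the scale log2(CPM + 1), with WT (n = 5) in blue, DKO (n = 4) in orange, the replicate number beside each point, the mean as a line and the SD as bars. The 16 genes shown are all among the 769 of 13997 without overlap. The DKO points therefore lie entirely above or entirely below the WT points through the choice of genes. DKO 3 is often the DKO point nearest to WT, as for C1rb and H2-K1.

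A large block of higher values was the hepatocyte programme, the genes by which liver cells make plasma proteins, bile and metabolic enzymes. All 25 hepatocyte markers stood higher in DKO, with a median log2 fold change of 3.29, and 20 had an unadjusted p under 0.05, against 13.7% of all genes. DESeq2 called 17 and edgeR 0. Yet none of them separated the groups completely. Relative to the WT mean, the median marker stood at -1.90, 2.64, -1.31, -0.63 and 1.38 in WT 1 to 5 and at 4.58, 5.08, 1.13 and 3.05 in DKO 1 to 4 on the log2 scale. DKO 1 and DKO 2 were far above all WT libraries, DKO 4 was slightly above WT 2, and DKO 3 lay below both WT 2 and WT 5. The median was 2.47 without DKO 2, 4.30 without WT 2 and 3.58 without DKO 3. Hepatocyte markers move with most of the groups described as higher, and their part in those differences was not tested.

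Plasma proteins were part of this. Albumin (Alb) stood at 31.5, 1105, 64.0, 123 and 613 CPM in WT and 3129, 3429, 580.0 and 1216 CPM in DKO, log2 fold change 2.43 (SE 0.99), and the groups overlapped. Serpina7, thyroxine binding globulin, was at 0.371, 8.65, 0, 2.52 and 8.49 CPM in WT and 60.3, 250.2, 19.4 and 395 CPM in DKO, log2 fold change 5.51 (SE 1.43), with no overlap. Apoe, a lipoprotein component, was at 46.7, 538, 125, 97.1 and 197 CPM in WT and 1932, 3749.6, 261 and 1004 CPM in DKO, log2 fold change 3.11 (SE 0.86). Of these 3 genes only Serpina7 kept WT and DKO apart. Of the carriers and apolipoproteins, 24 of 25 were kept and all were higher, with a median of 3.12. All 23 coagulation genes were higher too (median 2.94), and 0 of them separated the groups. F13b, the carrier subunit of clotting factor XIII, stood at 131, 717, 40.8 and 350.1 CPM in DKO against 1.11 to 43.1 CPM in WT.

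Detoxifying enzymes had the highest median of the 67 lists. With 32 of 40 cytochrome P450 genes kept, 31 were higher with a median log2 fold change of 3.76, and 26 had an unadjusted p under 0.05. Cyp2c40, which oxidises fatty acids such as arachidonic acid, stood at 0.371, 4.67, 0.291, 0.945 and 1.54 CPM in WT and 95.1, 314, 8.74 and 17.2 CPM in DKO, log2 fold change 5.94 (SE 1.31), with no overlap. Cyp2a5, the mouse coumarin hydroxylase, was at 393, 1313, 8.42 and 188 CPM in DKO and at 0.371, 18.8, 1.16, 1.26 and 31.6 CPM in WT, log2 fold change 5.54 (SE 1.68), and DKO 3 lay below WT 2 and WT 5. Conjugating enzymes followed, 32 of 33 higher with a median of 3.35. Ugt2b1, a glucuronosyltransferase, was at 0, 6.87, 0, 1.89 and 3.09 CPM in WT and 60.3, 140.3, 9.06 and 8.34 CPM in DKO with no overlap.

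Bile acid genes were higher in 23 of 24 cases (median 3.24). Cyp7a1, the rate-limiting enzyme of bile acid synthesis, stood at 1.48, 38.1, 1.16, 3.15 and 8.49 CPM in WT and 455, 1293, 14.6 and 215 CPM in DKO, log2 fold change 5.499 (SE 1.41), and DKO 3 lay below WT 2. Slco1b2, an uptake transporter for bile acids, stood at 15.6, 263, 22.99, 56.7 and 268 CPM in WT and at 1369, 5779.6, 235 and 2085 CPM in DKO, log2 fold change 4.24 (SE 1.12). In both genes DKO 2 was the highest library. Both zones of the liver lobule were higher: 15 of 16 perivenous genes (median 3.47) and all 20 periportal and urea cycle genes (median 2.24). Glul, glutamine synthetase of the perivenous zone, was at 234, 803, 220.1, 409 and 649.6 CPM in WT and 1473, 4703, 421 and 1832 CPM in DKO, log2 fold change 2.19 (SE 0.80). Otc, a urea cycle enzyme of the periportal zone, was at 0.742, 27.9, 0.873, 1.26 and 6.17 CPM in WT and 166, 389, 14.6 and 62.2 CPM in DKO, log2 fold change 4.34 (SE 1.18).

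Wnt feedback genes, here genes that Wnt signalling induces, some of them its brakes and others its receptors or DNA-binding partners, lay mostly on the lower side, unlike the perivenous genes. Of 14 kept, 11 were lower (median -0.75). Nkd2, an inhibitor of Wnt signalling, stood at 64.5, 109, 146, 131 and 98.0 CPM in WT and 22.6, 3.38, 19.1 and 1.67 CPM in DKO, log2 fold change -3.19 (SE 0.85). Tcf7, a partner of β-catenin on DNA, was at 87.5, 79.5, 91.4, 77.5 and 113 CPM in WT and 36.9, 34.4, 66.7 and 20.6 CPM in DKO, log2 fold change -1.17 (SE 0.65). Neither gene overlapped between the groups. The feedback genes used most often as readouts overlapped: Axin2 differed by -0.57 (SE 0.60), Notum by -0.54 (SE 0.62) and Lgr5 by 0.41 (SE 0.56) in log2 fold change. By library the list median was -1.14, -1.24, 0.32 and -2.05 in DKO 1 to 4, lowest in DKO 4 and above 0 in DKO 3, against -0.23 to 0.75 in WT.

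Nuclear receptors and other hepatocyte transcription factors were higher in 19 of 20 cases (median 1.987). Prox1, a regulator of hepatocyte identity, stood at 77.5, 133, 41.3, 66.2 and 126 CPM in WT and 159.7, 332, 215 and 188 CPM in DKO, log2 fold change 1.33 (SE 0.40), and was the member that separated the groups upward. Nr1h4, the bile acid receptor FXR, was at 0.742, 16.3, 1.16, 0.630 and 6.17 CPM in WT and 55.1, 77.8, 9.71 and 56.1 CPM in DKO, log2 fold change 3.24 (SE 0.96). Outside the list, Thrb, the thyroid hormone receptor β, stood at 8.16, 17.9, 17.2, 23.9 and 14.7 CPM in WT and 76.3, 149, 55.7 and 56.1 CPM in DKO, log2 fold change 2.35 (SE 0.49), with no overlap. Met, the receptor for hepatocyte growth factor, stood at 7.05, 28.6, 10.2, 5.36 and 19.3 CPM in WT and 53.4, 159, 39.8 and 174 CPM in DKO, log2 fold change 2.91 (SE 0.64). For Thrb and Met even DKO 3 lay above every WT library. In the growth hormone and IGF list 16 of 18 were higher (median 1.04). Ghr, the growth hormone receptor, was at 16.3, 38.9, 26.8, 14.8 and 44.0 CPM in WT and 169, 280.0, 60.2 and 46.7 CPM in DKO with no overlap.

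Energy metabolism split by pathway. Of 38 genes of amino acid breakdown 37 were higher (median 2.83), and Hibadh, an enzyme of valine breakdown, stood at 43.0, 40.9, 33.8, 35.9 and 57.9 CPM in WT and 76.3, 171, 66.7 and 114 CPM in DKO, log2 fold change 1.34 (SE 0.33), with no overlap. Fatty acid oxidation genes were higher in 30 of 31 cases (median 1.52), fatty acid and triglyceride synthesis in all 22 (median 1.63) and cholesterol synthesis in 23 of 24 (median 1.42). Scd1, the desaturase of fatty acid synthesis, was at 15.9, 182, 59.4, 43.8 and 99.5 CPM in WT and 1421, 2250.3, 183 and 379.6 CPM in DKO, log2 fold change 3.72 (SE 1.04). The cholesterol median was 0.85 without DKO 2. Glucose genes of the liver, such as G6pc1, the last enzyme of glucose release (log2 fold change 4.65), were higher in all 19 cases (median 2.98). Glycolysis genes and tumour isoforms were lower in 15 of 21 cases, with a median of -0.36. Pkm, whose M2 form is common in tumours, stood at 257, 199, 242, 185 and 159 CPM in WT and 104, 40.6, 156 and 139 CPM in DKO, log2 fold change -0.92 (SE 0.53), with no overlap. Respiratory chain genes had a median of 0.26 and 1 of 40 at an unadjusted p under 0.05 in the higher direction.

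**Figure D3:**
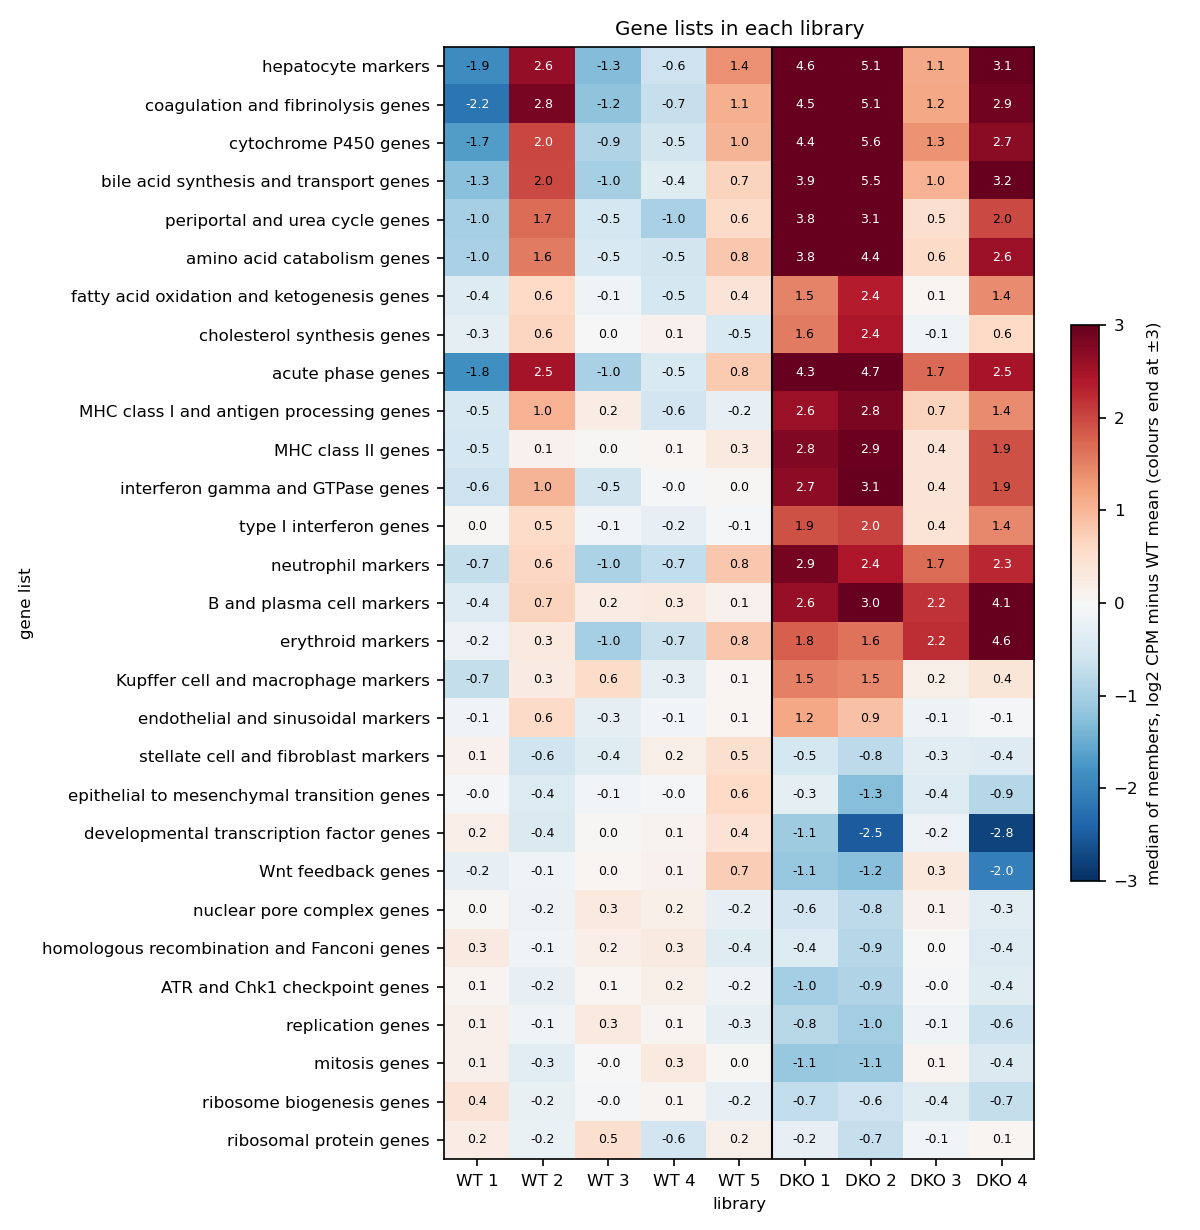
Each cell is the median over the kept members of 1 gene list in 1 library, as log2 CPM minus the mean of the WT libraries, with WT 1 to 5 left of the line and DKO 1 to 4 right of it, and colours end at 3 in either direction. DKO 1 and DKO 2 are strongly positive for hepatocyte lists (hepatocyte markers 4.58 and 5.08), DKO 3 is close to WT in most lists, and ribosome biogenesis genes are below 0 in all 4 DKO libraries.

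Acute phase genes, which the liver makes in inflammation, were higher in all 27 kept cases (median 2.77), and 3 did not overlap. Saa2 and its copy Saa1 encode serum amyloid A and were 93.9% identical over their transcripts, so counts may be split between them. Saa1 stood at 5.93, 35.6, 74.8, 18.6 and 18.5 CPM in WT and 1565, 722, 225 and 115 CPM in DKO, log2 fold change 4.41 (SE 0.90). For Saa2 the levels were 1.48, 13.1, 1.46, 4.10 and 2.31 CPM in WT and 1376, 558, 108 and 62.2 CPM in DKO, log2 fold change 6.76 (SE 1.101). Both genes were highest in DKO 1 and lowest among DKO libraries in DKO 4, whereas the list as a whole, at 4.31, 4.65, 1.69 and 2.48 in DKO 1 to 4, was lowest in DKO 3, as the hepatocyte markers were.

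Antigen presentation and interferon genes formed another block. Interferons induce them through STAT and IRF factors, and the sites of IRF factors hold repeats of the letters GAAA. All 17 kept MHC class I genes (median 2.02), all 8 class II genes (median 2.67), all 24 type I interferon genes (median 1.82) and 16 of 17 interferon γ genes (median 2.44) were higher. The numbers at an unadjusted p under 0.05 were 14, 7, 17 and 14, in the same order, against 13.7% of all genes. Members near 0 in WT, such as Trim30d with 8 counts over the WT libraries, could pass the filter only through other libraries. These numbers are therefore a description and no support. The letters GAAA, any 2 bases and GAAA again, on either strand, from 250 bases before to 50 bases after the RefSeq gene start, occurred in 3.62% of 9940 genes with a promoter entry. They were present for 10 of 18 type I interferon genes, 9 of 14 interferon γ genes and 5 of 15 class I genes, which is a description of known targets and not evidence of binding here. A 100-base window around the match is shown for 4 of them, each 5′ to 3′ on the strand of the gene, with the match in capitals (RefSeq, GRCm38.p6).
Isg15, chr4:156200842-156200941, minus strand: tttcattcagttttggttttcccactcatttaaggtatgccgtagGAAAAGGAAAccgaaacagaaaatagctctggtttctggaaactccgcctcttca
Irgm2, chr11:58214868-58214967, plus strand: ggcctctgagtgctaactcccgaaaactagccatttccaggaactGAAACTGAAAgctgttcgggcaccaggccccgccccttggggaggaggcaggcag
Igtp, chr11:58199477-58199576, plus strand: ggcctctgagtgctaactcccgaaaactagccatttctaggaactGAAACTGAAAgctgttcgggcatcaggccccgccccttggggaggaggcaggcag
B2m, chr2:122147503-122147602, plus strand: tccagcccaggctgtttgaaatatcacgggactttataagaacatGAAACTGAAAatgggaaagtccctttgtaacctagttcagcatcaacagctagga

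Of these 4 genes, B2m, the light chain of class I molecules, stood at 62.3, 222, 120.2, 112 and 237 CPM in WT and 799, 1415, 254 and 471 CPM in DKO, log2 fold change 2.29 (SE 0.58), with no overlap. Isg15, a ubiquitin-like protein induced by type I interferon, was at 4.82, 8.38, 4.66, 2.21 and 3.09 CPM in WT and 50.6, 31.6, 5.83 and 26.7 CPM in DKO, log2 fold change 2.58 (SE 0.58). Igtp, an interferon-inducible GTPase, was at 4.82, 10.4, 1.75, 3.47 and 3.09 CPM in WT and 66.9, 95.8, 5.83 and 41.1 CPM in DKO, log2 fold change 3.41 (SE 0.85). Igtp and Isg15 overlapped only because DKO 3 fell inside the WT range, and Irgm2, a neighbouring GTPase gene, did so as well (24.3, 25.9, 4.21 and 20.01 CPM in DKO against at most 5.22 CPM in WT). H2-K1, a class I heavy chain, was at 77.9, 192, 160.4, 191 and 199 CPM in WT and 785, 1194, 320.1 and 535 CPM in DKO, log2 fold change 2.11 (SE 0.46), with no overlap. Reads of H2 genes can match several members of the family, so single members are uncertain. H2-Eb1, a class II chain of antigen-presenting cells, was at 0.742, 1.37, 1.46, 1.58 and 1.54 CPM in WT and 13.4, 19.2, 1.94 and 8.89 CPM in DKO, log2 fold change 2.98 (SE 0.85). Trim30d, which lies in a cluster of like genes, was at 0.371, 0.550, 0.582, 0.315 and 0 CPM in WT and 28.001, 13.5, 3.56 and 2.78 CPM in DKO, log2 fold change 4.73 (SE 0.94). Cxcl9, a chemokine induced by interferon γ, stood at 22.9, 177, 0.647 and 5.002 CPM in DKO with most of it in DKO 2.

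Markers of blood cells were higher in DKO, and no DKO library lay inside the WT range of the list medians for B and plasma cells, neutrophils or erythroid cells. DKO 3 was the lowest DKO library for the first 2 of these lists, and DKO 2 for the third. Genes of B and plasma cells passed the filter in 5 of 20 cases, and all 5 lay above WT in every DKO library. Members near 0 in WT, such as Ighm with 9 counts over the WT libraries, could pass the filter only through other libraries, so this count is a description and no support. The list also holds Xbp1, which many secretory cells express. Their sum over all members was 38.8 to 98.4 CPM in WT and 158 to 305 CPM in DKO, while Mzb1 had 0 counts in all 9 libraries. Ighm, the immunoglobulin μ chain, stood at 0.371, 0.550, 0.582, 0.630 and 0 CPM in WT and 6.86, 8.45, 7.77 and 36.7 CPM in DKO, log2 fold change 4.84 (SE 0.83). Igkc, the κ light chain, was at 1.85, 4.26, 0.873, 0.945 and 6.17 CPM in WT and 17.1, 23.1, 14.6 and 47.8 CPM in DKO, log2 fold change 3.22 (SE 0.66). DKO 4 held the most of both genes, and DKO 3 lay with DKO 1 and DKO 2 and not with WT.

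Neutrophil markers were kept for 12 of 20 members, 11 of them higher (median 2.15) and 4 without overlap, some of them, such as Ltf, near 0 in WT. The remaining 1 was lower, with a log2 fold change of -1.75 and an unadjusted p under 0.05 by edgeR. Ngp, a granule protein of immature neutrophils, stood at 0.371, 5.08, 0, 0.945 and 6.17 CPM in WT and 55.7, 41.1, 23.95 and 41.1 CPM in DKO, log2 fold change 4.04 (SE 0.90). Ltf, lactoferrin of neutrophil granules, stood at 0.371, 0.550, 0, 0.630 and 0.771 CPM in WT and 7.71, 5.07, 3.24 and 5.56 CPM in DKO, log2 fold change 3.49 (SE 0.69). S100a9, a calprotectin subunit, was at 20.02, 47.7, 14.8, 17.3 and 104 CPM in WT and 219, 171, 196 and 192 CPM in DKO, log2 fold change 2.27 (SE 0.82). In all 3 genes the DKO libraries lay above the WT libraries, and the summed list gave 79.1 to 362 CPM in WT and 503 to 1530.3 CPM in DKO.

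Erythroid markers were higher for all 11 kept members (median 2.69). Hba-a2, an α-globin gene whose transcript was 99.8% identical to Hba-a1, stood at 8.53, 78.3, 32.0, 4.41 and 16.2 CPM in WT and 152, 117, 522 and 859 CPM in DKO, log2 fold change 3.86 (SE 0.78). The near copy Hba-a1 differed less, with a log2 fold change of 0.84 to 1.67 when 1 library was left out. Counts may be split between the 2 copies, so the size of the α-globin difference is uncertain. Ahsp, a chaperone of α-globin in red cell precursors, was at 2.60, 2.20, 0.873, 0.630 and 3.09 CPM in WT and 11.1, 8.45, 35.0 and 137 CPM in DKO, log2 fold change 4.69 (SE 1.04). DKO 4 was the highest library for Hba-a2 and Ahsp and DKO 3 the next. Without DKO 4 the list median was 1.55. Unlike the list medians, the summed levels overlapped, at 670 to 2749 CPM in WT and 2547, 1939, 5838 and 11710 CPM in DKO 1 to 4. By that measure DKO 1 and DKO 2 lay inside the WT range.

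Other immune lists were thinner. Kupffer cell and macrophage markers were higher in 18 of 19 cases (median 0.96). By library the list stood at 1.51, 1.45, 0.18 and 0.36 in DKO 1 to 4 and -0.72 to 0.55 in WT, so DKO 3 and DKO 4 lay inside the WT range. Among its 3 members without overlap was Ccr2, a receptor of recruited monocytes and not a marker of Kupffer cells. It was at 1.11, 5.77, 4.37, 4.41 and 1.54 CPM in WT and 16.6, 16.9, 9.06 and 16.1 CPM in DKO, log2 fold change 2.02 (SE 0.69). Of the T and NK cell markers 1 of 24 was kept, Il7r, the IL-7 receptor, at 3.71, 1.79, 3.49, 3.47 and 4.63 CPM in WT and 5.71, 12.4, 5.18 and 25.0 CPM in DKO. The summed list gave 6.404 to 22.4 CPM in WT and 13.9 to 67.6 CPM in DKO, with Ncr1 and Foxp3 at 0 counts in all 9 libraries. Ccr3, an eosinophil chemokine receptor, was at 0.371, 1.099, 0.291, 0 and 0 CPM in WT and 10.3, 10.7, 3.24 and 5.56 CPM in DKO, log2 fold change 3.93 (SE 0.86). All DKO libraries lay above all WT libraries for Il7r and Ccr3. Endothelial markers were higher in 12 of 18 cases (median 0.49), and 0 separated the groups. Flt1, a VEGF receptor, was high in DKO 4 (350.1 CPM against at most 55.8 CPM in any other DKO library).

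By list median, mesenchymal genes lay on the lower side. Of 27 stellate cell and fibroblast markers 19 were lower (median -0.45, but 0.58 with Y-linked expression as a covariate), and of 23 genes of epithelial to mesenchymal transition 17 (median -0.66). In the stellate list 8 members were higher, 3 of the lower ones had an unadjusted p under 0.05 by edgeR, and 2 did not overlap. By library this list stood at -0.54, -0.80, -0.32 and -0.39 in DKO 1 to 4 and -0.59 to 0.47 in WT. Only DKO 2 lay outside the WT range, and the members named below are those of small p. The transition list stood at -0.279, -1.288, -0.413 and -0.862 in DKO 1 to 4 and -0.407 to 0.591 in WT. There DKO 1 lay inside the WT range and DKO 3 at its edge. The summed levels of the transition list overlapped, at 1447 to 2860.5 CPM in WT and 1638 to 3004 CPM in DKO, highest in DKO 4. Cygb, a globin of stellate cells, stood at 400.5, 166, 185, 212 and 139.6 CPM in WT and 42.9, 31.0, 25.9 and 26.1 CPM in DKO, log2 fold change -2.80 (SE 0.87), with no overlap. Prrx1, a mesenchymal transcription factor, was at 123, 30.6, 56.8, 286 and 229.9 CPM in WT and 18.9, 14.6, 17.2 and 6.67 CPM in DKO, log2 fold change -3.32 (SE 1.05), with no overlap. Twist1, a transcription factor of the transition, was at 27.4, 1.37, 10.2, 202.9 and 149.7 CPM in WT and 0.571, 1.69, 4.85 and 1.11 CPM in DKO, log2 fold change -5.18 (SE 1.35). Cygb and Prrx1 separated the groups in every library, while for Twist1 WT 2 lay inside the DKO range. Col6a3, a collagen VI chain, was at 132, 34.6, 57.9, 56.4 and 66.3 CPM in WT and 31.4, 19.2, 25.9 and 8.34 CPM in DKO, log2 fold change -1.70 (SE 0.58). Fn1, fibronectin, stood apart from its list at 128, 253, 179, 148 and 286 CPM in WT and 567, 785, 296 and 873 CPM in DKO, log2 fold change 1.66 (SE 0.50), and is also a plasma protein of hepatocytes. Oncofetal genes were split (median -0.13, 11 higher and 11 lower). Within it, Afp, fetal α-fetoprotein, stood at 19.7, 694, 37.0, 24.3 and 186 CPM in WT and 658, 523, 36.9 and 842 CPM in DKO, log2 fold change 1.42 (SE 1.63), and H19, an imprinted non-coding RNA, had a log2 fold change 1.63 (SE 0.91). Both genes overlapped between the groups. Cholangiocyte markers were higher in 11 of 15 cases (median 0.68) without a member at an unadjusted p under 0.05. By library the list stood at 0.22, -1.36, 0.98 and 1.18 in DKO 1 to 4 and -1.57 to 0.51 in WT, so DKO 3 and DKO 4 lay above WT. Epcam, an epithelial adhesion gene, went against most of its list. It was at 128, 35.9, 125, 61.4 and 86.4 CPM in WT and 9.43, 1.69, 115 and 11.1 CPM in DKO, log2 fold change -1.33 (SE 0.92). For Epcam DKO 3 lay inside the WT range, and the other DKO libraries lay below every WT library.

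The lower side also held growth genes, by smaller margins. Of 45 replication genes 43 were lower, with a median of -0.71. Of these, 18 had an unadjusted p under 0.05 and 6 did not overlap, against 5.22% and 2.46% of all genes. Prim2, the large subunit of the DNA primase that lays the RNA primer for DNA polymerase α, stood at 21.5, 21.4, 29.4, 22.7 and 23.1 CPM in WT and 2.86, 4.51, 8.42 and 8.34 CPM in DKO, log2 fold change -1.97 (SE 0.38), with no overlap. Its partner in the same complex, Pola2, stood at 33.4, 24.04, 31.1, 25.2 and 21.6 CPM in WT and 11.4, 10.7, 18.4 and 7.78 CPM in DKO, log2 fold change -1.15 (SE 0.31). Chaf1a, which assembles chromatin behind the fork, was at 94.9, 65.7, 77.4, 73.1 and 35.5 CPM in WT and 32.9, 20.3, 39.5 and 18.3 CPM in DKO, log2 fold change -1.32 (SE 0.35). Prim2 and Pola2 separated the groups in every library, and Chaf1a overlapped only between WT 5 and DKO 3. By library, replication genes lay at -0.82, -1.04, -0.12 and -0.64 in DKO 1 to 4 and at -0.30 to 0.30 in WT on the log2 scale, so DKO 3 lay inside the WT range.

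Mitosis genes were lower in 60 of 61 cases (median -0.65), 18 of them at an unadjusted p under 0.05. Ckap2l, a spindle protein, stood at 56.4, 51.9, 46.9, 48.5 and 49.4 CPM in WT and 22.001, 21.97, 31.7 and 22.2 CPM in DKO, log2 fold change -1.04 (SE 0.23). Incenp, a scaffold of the Aurora B complex, was at 272, 149.9, 172, 169 and 128 CPM in WT and 86.3, 59.7, 90.0 and 65.0 CPM in DKO, log2 fold change -1.24 (SE 0.33). Neither gene overlapped between groups. Cdc25c, the phosphatase that starts mitosis, was at 18.9, 12.2, 16.3, 17.0 and 17.7 CPM in WT and 9.14, 6.20, 6.15 and 8.34 CPM in DKO, log2 fold change -1.13 (SE 0.34). For the list as a whole DKO 3 stood at 0.07, inside the WT range of -0.31 to 0.30, and the median without DKO 3 was -0.92. Among G1 genes, Ccnd1, cyclin D1, had a log2 fold change of -0.87 (SE 0.32) and Ccnd2, cyclin D2, one of -1.71 (SE 0.84), with a list median of -0.20. The p53 targets (median -0.10) and apoptosis genes (median 0.06) lay near the median of all genes. Casp8, an initiator caspase, stood higher without overlap, at 4.45, 6.18, 4.66, 6.62 and 3.86 CPM in WT and 17.1, 32.1, 9.06 and 18.9 CPM in DKO, log2 fold change 1.87 (SE 0.60).

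Since the title of the study speaks of pores and repair, those lists are given by role. Nuclear pore genes were lower in 29 of 30 cases with a median of -0.39. Of these, 2 had an unadjusted p under 0.05, a share near the 5.22% of all genes. None of the pore genes separated the groups, against 2.46% of all genes on the lower side, and 0 were called by edgeR or DESeq2. Pom121, a membrane anchor of the pore, stood at 90.1, 83.5, 99.8, 120.1 and 75.6 CPM in WT and 54.6, 44.5, 81.9 and 45.01 CPM in DKO, log2 fold change -0.73 (SE 0.29). Nup133, a scaffold subunit, was at 43.0, 34.5, 48.6, 35.9 and 29.3 CPM in WT and 25.4, 18.03, 32.0 and 19.5 CPM in DKO, log2 fold change -0.69 (SE 0.33). For both genes DKO 3 lay inside the WT range. By library the pore list stood at -0.56, -0.79, 0.13 and -0.32 in DKO 1 to 4 and -0.24 to 0.29 in WT. Among transport factors 27 of 29 were lower (median -0.32). Ipo9, an importin of histones, stood at 48.9, 46.8, 47.7, 51.4 and 48.6 CPM in WT and 32.6, 26.5, 34.3 and 30.0 CPM in DKO, log2 fold change -0.66 (SE 0.21), and was the member of the list without overlap.

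Homologous recombination and Fanconi genes were lower in 32 of 39 cases (median -0.48). Of these, 6 had an unadjusted p under 0.05, against 5.22% of all genes. Fancd2, the central Fanconi protein, stood at 21.1, 24.5, 28.8, 18.6 and 23.1 CPM in WT and 12.9, 7.89, 17.8 and 7.78 CPM in DKO, log2 fold change -0.99 (SE 0.40), with no overlap. Rad51b, a gene of recombination repair, lay the other way, at 5.19, 12.4, 9.02, 6.93 and 4.63 CPM in WT and 61.1, 71.6, 14.6 and 41.1 CPM in DKO, log2 fold change 2.59 (SE 0.70), also with no overlap. It had the smallest p of the list, and DKO 3 was the DKO library nearest to WT for it as for Fancd2. Checkpoint genes of ATR and Chk1 were lower in 18 of 20 cases (median -0.55). Clspn, claspin of the fork checkpoint, stood at 73.0, 56.5, 71.0, 71.2 and 50.9 CPM in WT and 28.9, 20.8, 48.2 and 21.7 CPM in DKO, log2 fold change -1.10 (SE 0.41), with no overlap. End joining, excision and mismatch repair genes were lower in 33 of 39 cases (median -0.51). Parp1, which marks strand breaks, was at 235, 150.6, 200.5, 227 and 147 CPM in WT and 95.7, 112, 143 and 81.7 CPM in DKO, log2 fold change -0.83 (SE 0.25), with no overlap. For Clspn and Parp1 DKO 3 again lay nearest to WT. Many repair genes are expressed together with replication genes in S phase, so these lists are not separate lines of evidence.

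**Figure D4:**
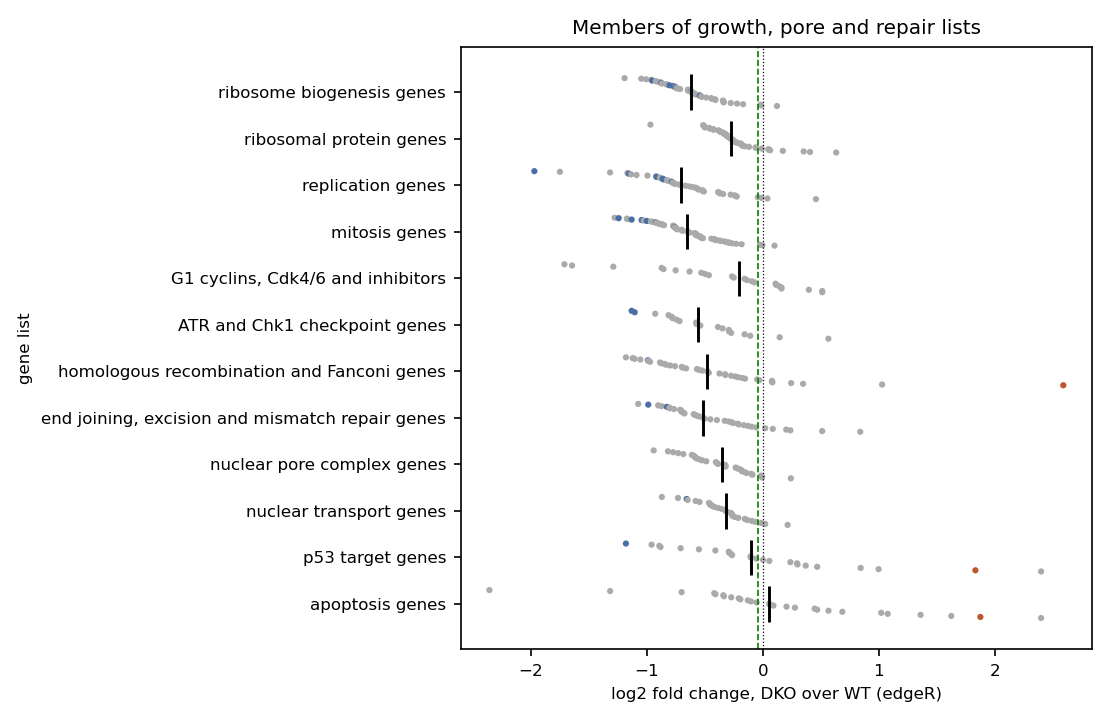
Each point is 1 kept gene of a list, placed by its log2 fold change of DKO (n = 4) over WT (n = 5), with the list median as a black bar, zero as a dotted line and the median of all genes as a green dashed line. Orange and blue points are genes whose groups do not overlap, higher and lower in DKO. Rad51b stands alone at the far right (2.59) of the homologous recombination row, and Prim2 at the far left (-1.97) of the replication row.

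Ribosome biogenesis genes, a set that Myc induces, were lower in 46 of 47 cases with a median of -0.62. Of these, 23 had an unadjusted p under 0.05 and 7 did not overlap, while 0 were called by edgeR and 6 by DESeq2. By list median DKO 3 lay outside the WT range with the other DKO libraries: the DKO libraries stood at -0.74, -0.61, -0.36 and -0.70 and the WT libraries at -0.25 to 0.38. By summed level DKO 3, at 10625 CPM, lay inside the WT range of 9675 to 17774 CPM. Nop58, a core protein of snoRNA particles, stood at 873, 485, 482, 576 and 494 CPM in WT and 338, 297, 442 and 302 CPM in DKO, log2 fold change -0.76 (SE 0.24), with no overlap. Nolc1, a chaperone of the same particles, was at 521, 200.8, 248, 336 and 209 CPM in WT and 148, 179, 179 and 120.0 CPM in DKO, log2 fold change -0.95 (SE 0.31), with no overlap. The E-box CACGTG, the site that Myc and Max bind, was in 10 of 41 promoters of the list and in 11.8% of the 9940. No match was found for Nop58 or Nolc1. Rrn3, the initiation factor of RNA polymerase I, carries the E-box upstream of its start, shown with the match in capitals (RefSeq, GRCm38.p6, chr16:13780449-13780534, plus strand).
Rrn3: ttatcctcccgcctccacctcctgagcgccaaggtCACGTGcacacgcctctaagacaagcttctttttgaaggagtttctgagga
Rrn3 stood at 180.2, 115, 171, 190.0 and 88.7 CPM in WT and 105, 91.8, 72.8 and 54.5 CPM in DKO, log2 fold change -0.88 (SE 0.27), and overlapped between WT 5 and DKO 1 and 2. Exosc9, an exosome subunit that trims ribosomal RNA, was at 100.5, 80.5, 124, 93.6 and 113 CPM in WT and 44.9, 65.4, 45.3 and 61.1 CPM in DKO, log2 fold change -0.92 (SE 0.23), with no overlap. Ribosomal proteins themselves differed less (median -0.28, 43 of 50 lower).

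Stress genes and genes of the daily rhythm gave smaller differences. All 27 kept genes of the unfolded protein response were higher (median 0.65), though 8 had an unadjusted p under 0.05. Ern1, the sensor IRE1, stood at 16.3, 20.2, 20.96, 20.2 and 13.1 CPM in WT and 39.1, 61.4, 28.5 and 66.7 CPM in DKO, log2 fold change 1.42 (SE 0.33), with no overlap. Edem1, which clears misfolded proteins, was at 20.8, 32.7, 26.8, 31.5 and 34.7 CPM in WT and 76.0, 98.0, 38.5 and 84.5 CPM in DKO, log2 fold change 1.34 (SE 0.34), with no overlap. Both lay above WT in every DKO library, DKO 3 by the least. NRF2 targets were higher in 15 of 21 cases (median 1.21). Gclm, a subunit of the enzyme that starts glutathione synthesis, was at 77.1, 145, 76.8, 98.3 and 116 CPM in WT and 272, 689, 154 and 644 CPM in DKO, log2 fold change 2.10 (SE 0.59), with no overlap. Lysosome genes were higher in 30 of 33 cases (median 0.60), with Ctsb, cathepsin B, at 88.3, 142, 169, 130.1 and 172 CPM in WT and 343, 464, 173 and 453 CPM in DKO, log2 fold change 1.35 (SE 0.36). For Gclm and Ctsb the margin of DKO 3 was narrow, and for Ctsb it was 173 against 172 CPM. Genes of the circadian rhythm were higher in 14 of 18 cases (median 0.93), and Per2, a clock repressor, was at 10.4, 13.9, 14.6, 9.77 and 14.7 CPM in WT and 26.3, 25.9, 30.1 and 35.6 CPM in DKO, log2 fold change 1.22 (SE 0.32), with no overlap. Fos, an immediate early gene, was at 5.93, 5.91, 7.57, 35.0 and 163 CPM in WT, highest in WT 5 and next in WT 4, and at 4.29, 2.25, 9.06 and 8.89 CPM in DKO.

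Liver genes known to be higher in one sex were higher in DKO for both sexes, 11 of 12 male-biased (median 3.33) and all 14 female-biased genes (median 2.94). Cyp7b1, a male-biased hydroxylase, stood at 0.742, 2.47, 0.582, 0.315 and 0 CPM in WT and 24.6, 80.0, 2.27 and 4.45 CPM in DKO, log2 fold change 4.74 (SE 1.33). Prlr, the female-biased prolactin receptor, was at 2.97, 16.2, 2.04, 3.15 and 13.9 CPM in WT and 190.0, 337, 12.6 and 69.5 CPM in DKO, log2 fold change 4.32 (SE 1.25). Both overlapped between the groups through DKO 3. With log2 Y-linked expression as a covariate, edgeR called 0 genes, with 736 higher and 468 lower at an unadjusted p under 0.05, and the median of the hepatocyte markers was 2.48.

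Genes near the deleted loci were compared with all genes. Within 5 Mb of Cdk16, 14 of 23 kept genes were higher (median 0.10), and 2 genes (8.70%) did not overlap, beside 3.04% higher and 2.46% lower without overlap among all genes. Araf, a RAF kinase, was higher (log2 fold change 0.40), and Usp11, a deubiquitinase, lower (log2 fold change -1.19). Within 5 Mb of Cdk18, 51 of 94 were higher (median 0.07), and 5 genes (5.32%) did not overlap, a share near that of all genes. C4bp and Cd55, both complement regulators, were higher by log2 fold changes of 3.43 (SE 1.29) and 1.74 (SE 0.67), as was Rassf5 (1.25), and Ipo9 and Kif14, a kinesin of cell division, were lower (Kif14 -0.9999). edgeR called 0 genes in either window, with 5 and 16 at an unadjusted p under 0.05, and DESeq2 called 2 and 7.

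Among the most abundant genes without overlap, Rnase4, a secreted ribonuclease, stood at 42.6, 268, 41.9, 56.4 and 284 CPM in WT and 902, 4453, 319.8 and 2067 CPM in DKO, log2 fold change 3.81 (SE 0.97). Serp1, which protects proteins in the endoplasmic reticulum, was at 338, 348, 530.3, 423 and 563 CPM in WT and 633, 935, 582 and 971 CPM in DKO, log2 fold change 0.82 (SE 0.34). On the lower side, Ddx21, an RNA helicase of the nucleolus, was at 1210.3, 586, 556, 806 and 775 CPM in WT and 408, 556, 554 and 534 CPM in DKO, log2 fold change -0.62 (SE 0.28), and Top1, topoisomerase I, at 934, 656, 627, 931 and 626 CPM in WT and 518, 616, 613 and 546 CPM in DKO, log2 fold change -0.40 (SE 0.22). Both lower genes were separated by narrow margins, and for Ddx21 DKO 2 and WT 3 were nearly equal.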

How the data were processed

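The authors deposited 1 table of raw counts per gene for 14 libraries, with 77981 genes. Per the labels' protocols the libraries were QuantSeq 3′ end libraries with molecular identifiers. Of software, the submitters' processing notes name the aligner STAR (2.7.11a), the counter HTSeq (1.99.2), UMI-tools (1.1.2) for molecular identifiers, DESeq2 (1.32.0) and FastQC. They list GRCh38 beside mm10 as builds, with no role for either. The sources used here do not say whether the deposited counts are molecules or reads, and intervals cover counting error only.

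Libraries were grouped by the genotype in the labels. In edgeR 4.0.16 (R 4.3.3), all 14 libraries were fitted together by group, after filterByExpr (13997 genes, 99.0% of counts) and TMM scaling. The quasi-likelihood F test of DKO minus WT was two-sided, and p-values were adjusted by the Benjamini-Hochberg method over all genes kept, with calls at an adjusted p under 0.05. The SE is the log2 fold change divided by the root of F. CPM is a count over the library's kept counts times its TMM factor. Medians by library used log2 CPM with a prior count of 2. "No overlap" means that all 4 DKO libraries lay on 1 side of all 5 WT libraries. DESeq2 1.42.0 and limma 3.58.1 (voom) were alternatives, and the scripts were tested on simulated data. Positions came from GENCODE M21 (GRCm38), which held 93.7% of the kept genes, and promoters from RefSeq (GRCm38.p6).

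The gene lists and the comparison were chosen with earlier results of these data known, and no set test was run. Named genes were the deleted and driver genes, all called genes, the 15 smallest p in each direction, up to 4 members of smallest p per list, the 5 most abundant genes without overlap in each direction, and genes silent in 1 group. Afp, Alb, Axin2, C1s2, Ccny, Cdk17, Glul, Hba-a1, Lgr5, Notum and Xbp1, and the neighbours Araf, C4bp, Cd55, Kif14, Rassf5 and Usp11, were named outside this rule, after their values were seen.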

Additional observations from a re-analysis of the deposited data

Results flagged for a closer look

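In 372 sets of 4 or 5 libraries of 1 group (gene levels, list medians and Y-linked levels), 16 held a library far from the others by Dixon's criterion, and chance alone gives about 1 in 20. The number flagged is not above that share, so the flags below are descriptions. DKO 3 was the flagged library for 5 genes. It held 36.9 CPM of Afp against 523 to 842 CPM in the other DKO libraries, 9.06 CPM of Ccr2 against 16.1 to 16.9 CPM, and 31.7 CPM of Ckap2l against 21.97 to 22.23 CPM. Irgm2 was at 4.21 CPM there against 20.0 to 25.9 CPM, and Nr1h4 at 9.71 CPM against 55.1 to 77.8 CPM. DKO 4 was low for Ccny, at 109 CPM against 120.3 to 122 CPM, and high for Ighm, at 36.7 CPM against 6.86 to 8.45 CPM. DKO 1 was low for Ddx21, at 408 CPM against 534 to 556 CPM.

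Among WT libraries, WT 1 was low for H2-K1 (77.9 CPM against 160.4 to 199 CPM), for H2-Eb1 (0.742 CPM against 1.37 to 1.58 CPM) and for the median of the PCTAIRE and PFTAIRE kinases and their cyclins, -0.42 in log2 CPM relative to the WT mean against 0.05 to 0.20. WT 2 was the only WT library with C1s2, at 1.37 CPM. WT 3 was high for Prim2, at 29.4 CPM against 21.4 to 23.1 CPM. WT 4 was low for the median of cholangiocyte markers, at -1.57 against 0.06 to 0.51. WT 5 had 0 CPM of Pax9 against 5.36 to 10.3 CPM, and 788 CPM of Y-linked genes against 3.85 to 204 CPM.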

How the results depend on the processing

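The number of called genes depended on the processing. It was 1 with RLE or upper-quartile factors, a stricter filter or a robust fit. DESeq2 called 1033 genes, and edgeR without a filter on low counts called 252. The call count was 0 with limma voom, with only the DKO and WT libraries, with log2 Y-linked CPM as a covariate, and without the 3 libraries above 100 CPM of Y-linked genes. Leaving out 1 library gave 0 to 1 calls. At an unadjusted p under 0.05 the 2651 genes became 4360 without a filter, 4130 with voom (2473 higher and 1657 lower) and 1204 with the Y-linked covariate (736 higher and 468 lower). Leaving out 1 library gave 1519 (without DKO 2) to 3795 (without DKO 3). The cause of these changes was not tested. Upper-quartile factors moved the median of all genes from -0.04 to -0.16, so lists with small negative medians are best read against that shift.

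With the replicate number as a block, 438 genes were called. The numbers do not pair the samples: the correlation of same-numbered DKO and WT libraries was -0.21, 0.45, 0.04 and 0.11 for numbers 1 to 4, and for 1 of the 4 DKO libraries the WT library of its own number was the closest.

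Of the 67 list medians, 10 changed sign under at least 1 alternative: driver genes, stellate cells, oncofetal genes, Hippo, Notch, G1 cyclins, p53, apoptosis, amino acid response and heat shock genes. Uncalled single genes changed sign too, Cdk14 and Hoxa5 from larger values and the others from values nearer 0. The log2 fold change of Ccny was -0.00812 with DESeq2, -0.00844 with RLE factors, -0.118 with upper-quartile factors and -0.0814 to 0.0366 when 1 library was left out. That of Cdk17 was -0.0250 with upper-quartile factors and -0.0852 to 0.310 when 1 library was left out. With the Y-linked covariate it was 0.0238 for Cdk14, 0.35 for Ctnnb1 and 0.22 for Notum. Ctnnb1 was at 0.0809 without the 3 libraries high in Y-linked genes and at -0.354 to 0.0172 when 1 library was left out. Hoxa5 ran from -0.27 without DKO 3 to 2.52 without DKO 4. Depth limits genes of a few CPM, where 1 count weighs between 0.137 and 0.771 CPM in the 9 libraries.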
